A study of Bos taurus with 30 samples.

Results

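The expression of 10 genes of arginine, creatine and polyamine metabolism was followed in bovine endometrial epithelial and stromal cells cultured on a chip. The set was ASS1, ASL, ARG2, GATM, CKMT1A, CKB, ODC1, SMOX, SAT1 and SMS, so 10 of the 27607 genes in the count tables, found by gene symbol. All 10 were found in both tables. They were chosen on their measured expression in these same libraries, with their levels in the 2 cell types and the stromal insulin response of GATM and CKMT1A in view, so values from those contrasts are a description. Primary cells came from uteri of nonpregnant cows early in the luteal phase, and epithelial cells in an upper chamber faced stromal cells on the other side of a porous membrane. Both cell types were enriched, not pure, populations. In the glucose experiment, medium with 5 or 50 mM glucose flowed over the cells for 72 hours, giving 12 libraries. In the insulin experiment, medium at 5 mM glucose carried vehicle (acetic acid in PBS), 1 ng/mL insulin or 10 ng/mL insulin for the same time, giving 18 libraries. Each dose and cell type had 3 biological replicates, and no genetic modification, breed or age is named for the animals. The labels do not say which cow gave which replicate, so p-values measure the spread between these cultures.

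Arginine is made from citrulline by argininosuccinate synthase and argininosuccinate lyase, and it is the shared starting point of urea, nitric oxide, creatine and ornithine. Ornithine decarboxylase turns ornithine into putrescine, from which the polyamines spermidine and spermine are built, while acetylation and oxidation of polyamines run the path backwards. In ruminants, arginine and polyamines in the uterine lumen are known to be needed by the early embryo, and creatine kinases buffer ATP in cells with uneven energy demand.

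Expression is given below as CPM, a gene's read count scaled to the total of gene-assigned reads in its library, which compares 1 gene between libraries but not different genes, since transcript length was not corrected for. Libraries of the glucose experiment held 13493503 to 16647701 counted reads and those of the insulin experiment 8826470 to 13214728, so that 3 counts stood for 0.180 to 0.34 CPM. The labelled cell types were checked with 25 epithelial and 20 stromal marker genes, all of which were found in the tables. Their summed levels in epithelial libraries were 9480 to 16935 CPM for epithelial and 1187 to 7432 CPM for stromal markers. In stromal libraries the stromal sum was 23877 to 90732 CPM, but the epithelial sum ran from 25.5 to 410.4 CPM in the insulin experiment and from 94.7 to 6446 CPM in the glucose experiment. Relative to epithelial libraries of the same experiment and dose, the median epithelial marker was over 1% of its epithelial level in 4 of 6 stromal libraries with glucose and in 2 of 9 with insulin. Those were 5 mM replicate 1 (7.11%), 50 mM replicates 1, 2 and 3 (15.3%, 5.43% and 67.1%), vehicle replicate 2 (3.71%) and 10 ng/mL replicate 1 (3.67%). Other lists were sparse or followed the stroma. Leukocyte markers summed to 2.23 to 19.7 CPM (4 of 8 found), endothelial markers to 2.66 to 77.2 CPM (5 of 6 found), and smooth muscle markers (5 of 5 found) to between 19.5 and 374 CPM in epithelial libraries against 567 to 4184 CPM in stroma, while 0 of 2 red blood cell markers were found. In epithelial cells, replicate 2 at 5 mM glucose was the most extreme of the 6 glucose libraries in 7 of the 10 genes, being lowest for ARG2, GATM, ODC1 and SMS and highest for ASL, CKMT1A and SMOX. Its epithelial marker sum of 16935 CPM was above the 9536 to 10619 CPM of the other 5, and its part was not tested.

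**Figure D1:**
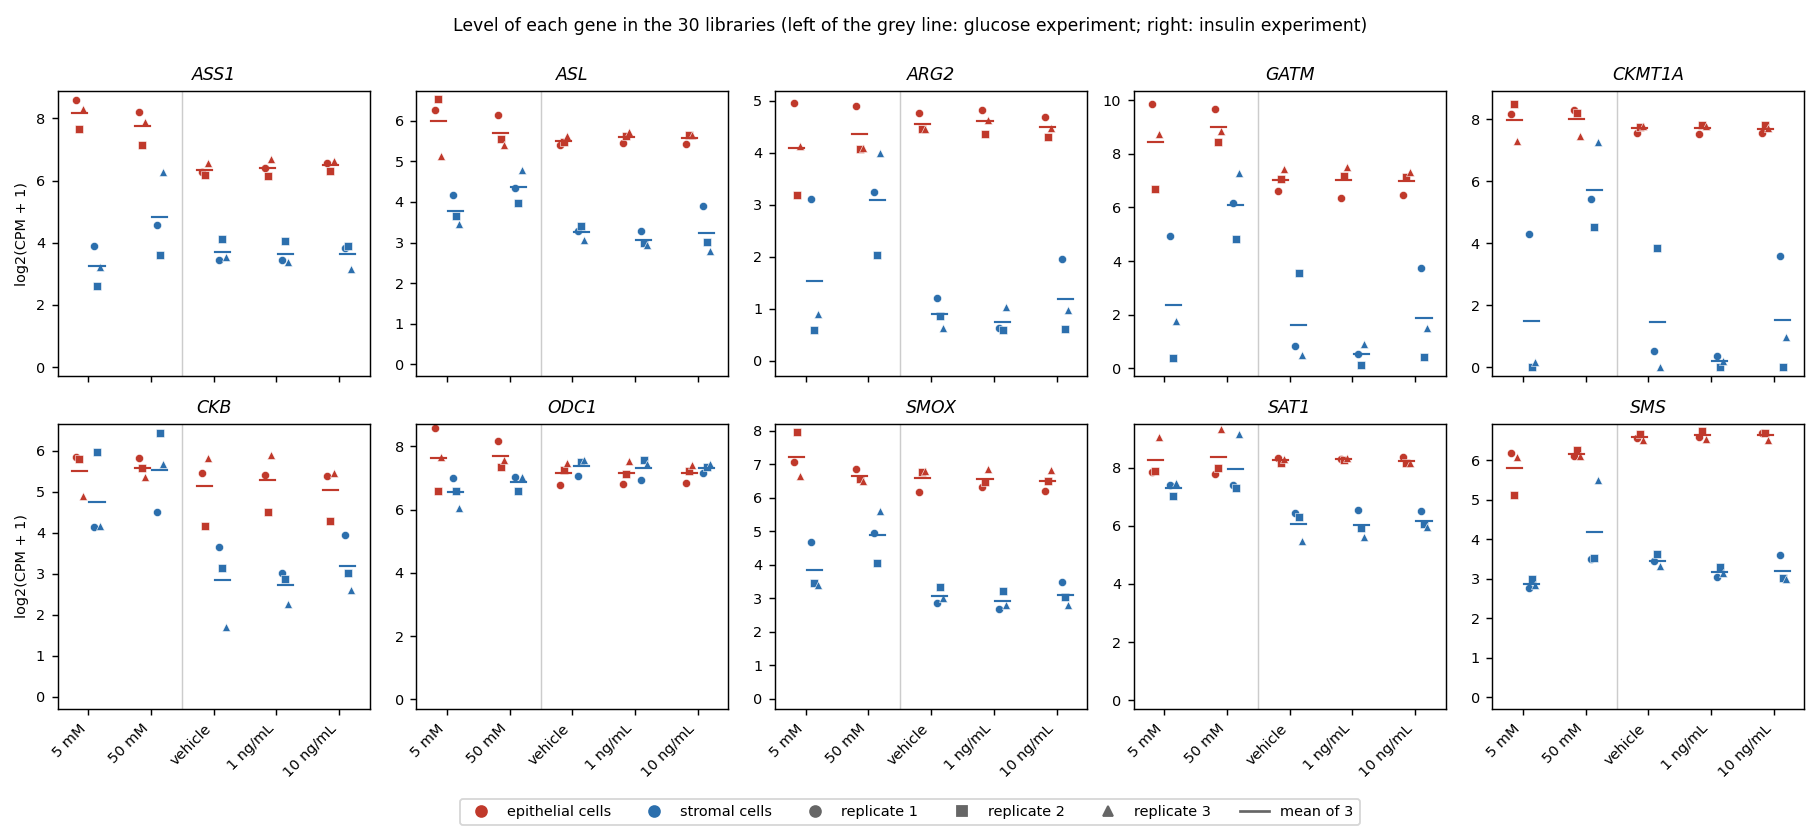
Level of each of the 10 genes as log2(CPM + 1) in all 30 libraries, by dose (x axis), cell type (colour) and replicate (marker shape), with the mean of 3 as a line. To the right of the grey line, in the insulin experiment, the epithelial points lie above the stromal points for every gene but ODC1, while GATM and CKMT1A spread over the widest range among stromal libraries.

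The arginine-making pair was higher in epithelial cells. ASS1, argininosuccinate synthase, which joins citrulline and aspartate, read 380.1, 199 and 311 CPM in epithelial replicates 1, 2 and 3 at 5 mM glucose and 13.9, 5.09 and 8.36 CPM in stromal cells. At 50 mM the epithelial values were 293, 139.9 and 236 CPM and the stromal values 23.0, 11.2 and 76.0 CPM. All 6 epithelial libraries were above all 6 stromal libraries, although 50 mM stromal replicate 3 stood well above the other stromal cultures. In the insulin experiment epithelial ASS1 was 76.5, 71.6 and 93.4 CPM with vehicle, 83.7, 69.2 and 103 CPM with 1 ng/mL and 92.6, 78.7 and 96.9 CPM with 10 ng/mL. Stromal values over the 9 libraries were 7.88 to 16.3 CPM (median 10.7), again with no overlap. The fitted epithelial excess on the log2 scale was 4.87 ± 0.37 (SE, n = 3 a group) at 5 mM glucose, 2.84 ± 0.45 (SE) at 50 mM and 2.65 ± 0.24 (SE) with vehicle.

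ASL, the lyase that releases arginine from argininosuccinate, followed the same order with a smaller gap. Epithelial cells at 5 mM glucose held 75.8, 92.1 and 34.3 CPM and stromal cells 17.1, 11.6 and 10.1 CPM. At 50 mM, 3 epithelial libraries gave 69.8, 46.0 and 41.1 CPM against 19.5, 14.7 and 26.4 CPM in stroma. Epithelial and stromal libraries did not overlap in either experiment, and the nearest pair with glucose was epithelial 5 mM replicate 3 and stromal 50 mM replicate 3. Across insulin doses, epithelial libraries lay in the narrow range 41.6 to 51.9 CPM (median 48.5) and stromal libraries in the range 5.96 to 13.9 CPM (median 7.37). The log2 excess in epithelial cells was 2.29 ± 0.14 (SE) with vehicle.

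ARG2, the mitochondrial arginase that splits arginine into ornithine and urea, was near the counting floor in most stromal cultures. With vehicle it read 26.0, 21.0 and 20.9 CPM in epithelial cells and 1.31, 0.815 and 0.542 CPM in stromal cells, a log2 difference of 4.59 ± 0.21 (SE). The epithelial mean was 22.6 ± 2.89 CPM (SD, n = 3). With glucose, epithelial cells at 5 mM gave 30.1, 8.15 and 16.4 CPM and stromal cells 7.62, 0.503 and 0.854 CPM. Epithelial replicate 2 at 5 mM lay inside the stromal range, which reached 14.9 CPM in 50 mM replicate 3.

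GATM and CKMT1A, of the creatine path, had the widest fitted gaps between cell types under 4 of the 5 treatments, 50 mM glucose being the exception, where ASS1 was highest. GATM, which transfers the amidino group of arginine to glycine as the committing step of creatine synthesis, read 918, 103 and 426 CPM in epithelial cells at 5 mM glucose. Stromal cells at that dose gave 29.9, 0.314 and 2.44 CPM. At 50 mM, epithelial cells gave 808, 345 and 460.5 CPM and stromal cells 70.1, 27.0 and 156 CPM, so that stromal replicate 3 at 50 mM was above epithelial replicate 2 at 5 mM. In the insulin experiment, epithelial GATM was 95.5, 131 and 171 CPM with vehicle. Stromal GATM was 0.787, 10.7 and 0.433 CPM with vehicle, 0.463, 0.0848 and 0.888 CPM with 1 ng/mL and 12.4, 0.351 and 1.83 CPM with 10 ng/mL, with a single library at each of vehicle and 10 ng/mL above 2 CPM. The log2 excess in epithelial cells was 6.55 ± 0.84 (SE) at 5 mM glucose, 2.78 ± 0.47 (SE) at 50 mM, 5.54 ± 0.95 (SE) with vehicle, 7.99 ± 0.36 (SE) with 1 ng/mL and 5.16 ± 1.06 (SE) with 10 ng/mL.

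CKMT1A, a mitochondrial creatine kinase that makes phosphocreatine from newly made ATP, was the gene closest to absent from stroma. In epithelial cells it gave 284, 357 and 158 CPM at 5 mM glucose and 188, 216 and 221 CPM with vehicle. In stromal cells it gave 18.7, 0 and 0.122 CPM at 5 mM, 42.1, 21.8 and 152 CPM at 50 mM, 0.437, 13.3 and 0 CPM with vehicle and 10.97, 0 and 0.961 CPM with 10 ng/mL insulin. With 1 ng/mL insulin, stromal cells held only 3, 0 and 2 reads, or 0.278, 0 and 0.161 CPM. A count of 0 at these depths allows up to 3 counts, by counting error alone. Epithelial and stromal libraries did not overlap, but the nearest pair with glucose, epithelial 158 CPM and stromal 152 CPM, changed order when library sizes were adjusted by the trimmed mean of M values (TMM). The log2 excess was 10.29 ± 0.36 (SE) with 1 ng/mL insulin and 2.19 ± 0.73 (SE) at 50 mM glucose. The value with insulin rests on 5 stromal reads in all. On leaving out 1 replicate it ran from 9.67 to 11.08, a wider range than its SE spans.

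CKB, the cytosolic brain-type creatine kinase, differed between cell types in the insulin experiment and not visibly with glucose. With vehicle, CKB was 42.8, 16.8 and 55.5 CPM in epithelial and 11.6, 7.88 and 2.28 CPM in stromal cells, and over all doses the epithelial minimum of 16.8 CPM was above the stromal maximum of 14.5 CPM. With glucose the order was mixed, at 56.3, 54.5 and 28.8 CPM in epithelial and 16.8, 61.7 and 17.0 CPM in stromal cells at 5 mM, and 55.6, 47.3 and 40.4 CPM against 21.8, 85.5 and 50.7 CPM at 50 mM. Stromal replicate 2 had the highest CKB of all 12 glucose libraries at 50 mM, though it was not the culture with most epithelial marker RNA. Its smooth muscle marker sums, 3891 CPM at 5 mM and 4184 CPM at 50 mM, were above the 885 to 2064 CPM of stromal replicates 1 and 3. The part of other cell types in its CKB was not tested. The log2 difference was 2.28 ± 0.65 (SE) with vehicle (1.51 to 2.93 on leaving out 1 replicate) and -0.11 ± 0.41 (SE) at 50 mM.

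Polyamine genes fell into 2 patterns. ODC1, ornithine decarboxylase and the entry enzyme of the path, was the only gene of the 10 with no epithelial excess in the insulin experiment. It gave 109.5, 152 and 175 CPM in epithelial and 133, 182 and 190.4 CPM in stromal cells with vehicle, a log2 difference of -0.30 ± 0.10 (SE). The ranges overlapped at every insulin dose. With glucose the difference had the other sign, from 386, 96.0 and 203 CPM in epithelial and 127, 94.4 and 65.9 CPM in stromal cells at 5 mM, a log2 difference of 0.87 ± 0.41 (SE). Epithelial replicate 2 at that dose was inside the stromal range.

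SMS, spermine synthase, and SMOX, the oxidase that returns spermine to spermidine, were both well above stroma in epithelial cells. SMS with vehicle averaged 95.0 ± 4.80 CPM (SD, n = 3) in epithelial and 10.0 ± 1.12 CPM (SD, n = 3) in stromal cells, and its 3 stromal values of 9.88, 11.2 and 8.99 CPM were far below the epithelial values of 93.5, 100.3 and 91.1 CPM. With glucose, stromal SMS was 5.73, 6.98 and 6.16 CPM at 5 mM and 10.4, 10.4 and 44.1 CPM at 50 mM. The last of these passed epithelial replicate 2 at 5 mM, which read 33.9 CPM against 71.1 and 67.1 CPM in its companions. SMOX gave 134, 248 and 99.8 CPM in epithelial and 24.6, 9.93 and 9.58 CPM in stromal cells at 5 mM glucose, and 71.8, 108 and 109.8 CPM against 6.21, 9.05 and 7.04 CPM with vehicle, with no overlap in either experiment. The log2 excess with vehicle was 3.17 ± 0.11 (SE) for SMS and 3.61 ± 0.12 (SE) for SMOX.

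SAT1, the acetyltransferase that starts polyamine breakdown, separated the cell types in 1 experiment. With vehicle, SAT1 was 323, 286 and 313 CPM in epithelial and 85.2, 77.4 and 43.9 CPM in stromal cells, a log2 difference of 2.13 ± 0.20 (SE). With glucose the epithelial values were 233, 234 and 534 CPM at 5 mM and 219.8, 256 and 643 CPM at 50 mM, and the stromal values 168, 129 and 178 CPM and 169, 155 and 567 CPM. Replicate 3 carried the highest epithelial reading at both doses and, at 50 mM, a stromal reading of the same order. The log2 difference at 50 mM was 0.27 ± 0.19 (SE).

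**Figure D2:**
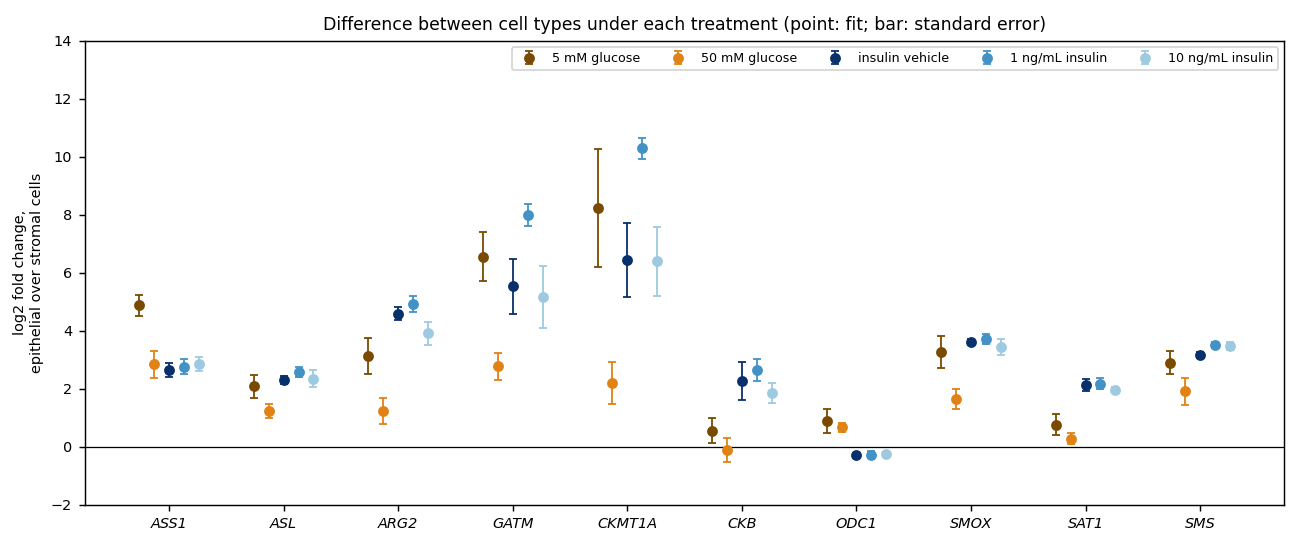
Fitted log2 fold change of epithelial over stromal cells for each gene under the 5 treatments, with the standard error as a bar (3 replicates a group). GATM and CKMT1A reach 7.99 and 10.29 with 1 ng/mL insulin and fall to 2.78 and 2.19 at 50 mM glucose, and ODC1 lies below 0 in the insulin experiment and above 0 with glucose.

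Counted over the set, every epithelial library exceeded every stromal library for 9 of 10 genes in the insulin experiment, the exception being ODC1, where 29.6% of all genes with that comparison did so. In the glucose experiment 4 genes did (ASS1, ASL, CKMT1A and SMOX), against 13% of all genes. The insulin count stayed at 9 with TMM-adjusted library sizes (27.6% of all genes) and without the stromal vehicle replicate 2 and 10 ng/mL replicate 1 (31%). Without the 4 stromal glucose libraries over 1% of the epithelial marker level, 9 genes did, CKB being the exception, against 28.2% of all genes in a comparison of 6 with 2 libraries. With TMM-adjusted library sizes the glucose count was 3, without CKMT1A, against 11.2%. At an adjusted p under 0.05 and a log2 fold beyond 0.1 (edgeR quasi-likelihood test, Benjamini-Hochberg), the epithelial excess was called for 7 genes at 5 mM glucose, 6 at 50 mM, and 9 with each of vehicle, 1 ng/mL and 10 ng/mL. The shares of all genes called higher in epithelial cells were 10.8%, 6.57%, 28.2%, 29.9% and 27.3%. The set was chosen with these cell types known, so nothing is read from the counts. In bulk RNA, fewer cells of a type and less RNA per cell cannot be told apart.

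Stromal readings of the creatine pair stood in the same libraries as epithelial marker RNA. In the 4 stromal glucose libraries over 1% of the epithelial marker level, GATM was 29.9 CPM (5 mM replicate 1) and 70.1, 27.0 and 156 CPM (50 mM), while the other pair, 5 mM replicates 2 and 3, read 0.314 and 2.44 CPM. As a share of the epithelial mean at the same dose, GATM at 50 mM was 13.04, 5.01 and 29.1% and CKMT1A 16.01, 8.28 and 57.8%, beside marker medians of 15.3%, 5.43% and 67.1%. With insulin, vehicle replicate 2 held 8.05% of epithelial GATM and 6.38% of epithelial CKMT1A beside a marker median of 3.71%. Likewise, 10 ng/mL replicate 1 held 9.70% and 5.28% beside 3.67%.

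In the 7 remaining stromal insulin libraries GATM lay between 0.0848 and 1.83 CPM and CKMT1A between 0 and 0.961 CPM. ARG2 lay between 0.509 and 1.31 CPM there. Above 5 CPM in each of these 7 libraries were 6 of the 10 genes, namely ASS1, ASL, ODC1, SMOX, SAT1 and SMS. Within the 6 stromal glucose libraries, the Pearson correlation of log2(CPM + 1) with the log2 epithelial marker sum was 0.87 for GATM, 0.93 for CKMT1A, 0.96 for ASL, 0.91 for SMOX, 0.84 for ODC1 and 0.36 for CKB. Within the 9 stromal insulin libraries the values were 0.97 for GATM, 0.99 for CKMT1A, 0.74 for ASL, 0.75 for SMOX, -0.018 for ODC1 and 0.59 for CKB. Spearman's rho there was 0.67 for GATM, 0.86 for CKMT1A, 0.43 for ASL, 0.42 for SMOX, -0.23 for ODC1 and 0.72 for CKB. For ASS1, ARG2, SAT1 and SMS, Pearson values were 0.86, 0.87, 0.69 and 0.83 with glucose. With insulin they were 0.47, 0.61, 0.52 and 0.72, with rho of 0.28, 0.43, 0.57 and 0.43. The points of each experiment share their libraries, so the values are a description. The part of epithelial RNA in the stromal readings was not tested.

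**Figure D3:**
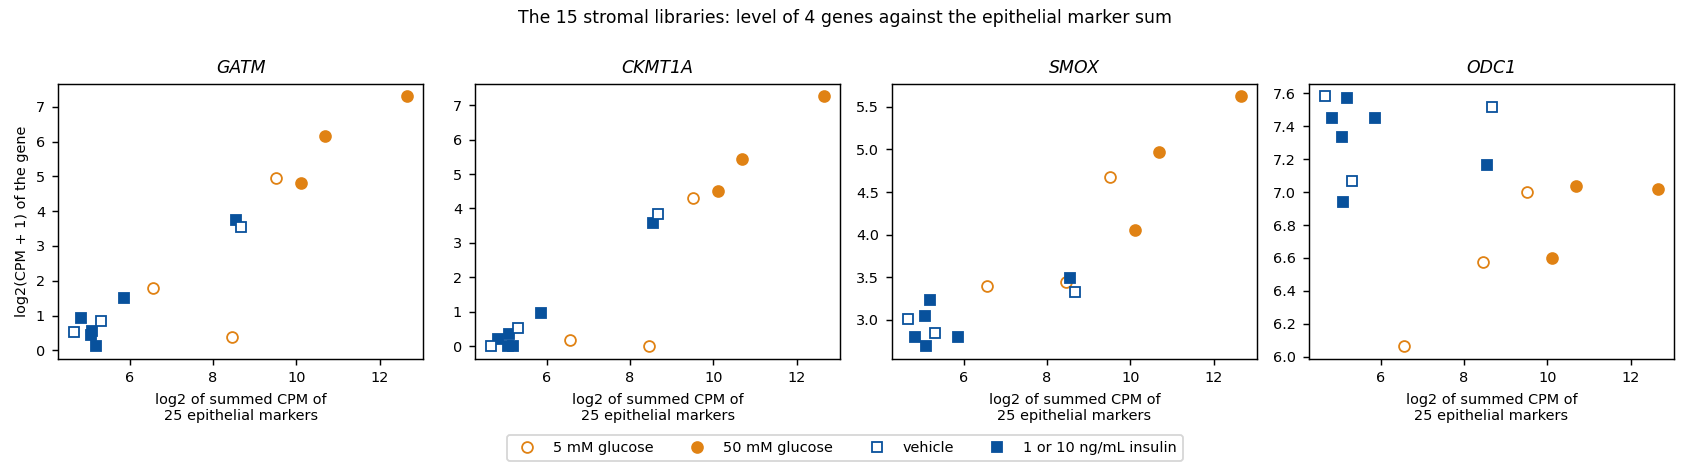
The 15 stromal libraries, with the log2 summed CPM of 25 epithelial markers on the x axis and log2(CPM + 1) of GATM, CKMT1A, SMOX and ODC1 on the y axes, whose scales differ. Circles are glucose and squares insulin libraries. GATM, CKMT1A and SMOX are highest in the libraries furthest right. ODC1 rises with the marker sum among the glucose circles (r = 0.84) and not among the insulin squares (r = -0.018), most of which lie higher.

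Whether glucose altered these genes was asked in each cell type by pairing replicates of the same number. In epithelial cells, edgeR called 0 of 10 genes between 50 and 5 mM (0% of 13055 genes tested), with 0 at an unadjusted p under 0.05 (1.54% of all genes) and 0 by DESeq2. The largest fitted values were -0.58 ± 0.33 (SE) for SMOX, 0.55 ± 0.40 (SE) for GATM and -0.42 ± 0.20 (SE) for ASS1 on the log2 scale, each with an adjusted p of 0.804 from edgeR. ASS1 was lower at 50 mM in 3 of 3 replicates. GATM was lower at 50 mM in replicate 1 and higher in replicates 2 and 3. Without replicate 2, whose 5 mM library was the most extreme, the log2 value of GATM was -0.0013 and that of SMOX -0.15.

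In stromal cells all 10 genes had a fitted value above 0 between 50 and 5 mM, and 0 of 10 were called (0% of 13035 genes), with 3 at an unadjusted p under 0.05 (ASS1, GATM and CKB) against 4.96% of all genes. DESeq2 called GATM and CKMT1A, where it called 1.2% of all genes higher at 50 mM. The values on the log2 scale were 5.40 ± 2.17 (SE) for CKMT1A, 4.24 ± 1.30 (SE) for GATM, 2.08 ± 0.86 (SE) for ARG2, 1.60 ± 0.54 (SE) for ASS1 and 1.36 ± 0.51 (SE) for SMS, and adjusted p-values of the 10 ran from 0.696 to 0.709 in edgeR. GATM and CKMT1A were higher at 50 mM in 3 of 3 replicates. Without replicate 1, both were called by edgeR, at log2 values of 5.998 and 10.19. Without replicate 3, whose 50 mM library held 67.1% of the epithelial marker level, they were 2.56 and 2.47, ARG2 was 0.82, ASS1 0.88 and SMS 0.69, and none was called. Over the same contrast, 24 of 24 epithelial markers tested were also above 0, with a median of 4.49, and 20 of 20 stromal markers were below 0, with a median of -0.51. The median over the 10 genes was 1.18, and the part of epithelial RNA in it was not tested.

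The epithelial change with glucose less the stromal change was negative for 10 of 10 genes, and 0 were called (0% of 13851 genes), with 4 at an unadjusted p under 0.05 (7.65% of all genes). It was -5.73 ± 2.10 (SE) for CKMT1A and -3.84 ± 1.36 (SE) for GATM, with an adjusted p of 0.640 for both in edgeR. Without replicate 1 both were called, at -10.26 and -5.11, and without replicate 3 neither was, at -3.38 and -2.42. The ODC1 difference was 0.14 without replicate 3, so its sign was not stable.

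In epithelial cells, no gene of the 10 passed the call rule with insulin. Fitted log2 changes over the 3 dose comparisons lay between -0.26 and 0.15, with standard errors of 0.04 to 0.09, and edgeR called 0 of 10 in each. The backgrounds were 0% (1 ng/mL against vehicle), 0.113% (10 ng/mL against vehicle) and 0% (10 against 1 ng/mL). DESeq2 also called 0 in each. Unadjusted p-values were under 0.05 for 0, 1 and 1 genes, against 2.87%, 6.78% and 4.29% of all genes. The first of these was ASS1, 0.15 ± 0.05 (SE) with 10 ng/mL against vehicle (adjusted p = 0.521), higher in 3 of 3 replicates. The second was CKB, -0.26 ± 0.09 (SE) with 10 against 1 ng/mL (adjusted p = 0.983), which was lower in 3 of 3 replicates and was called by edgeR without replicate 1, at -0.40.

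In stromal cells 0 genes were called by edgeR with 1 ng/mL against vehicle (7 tested, background 0% of 12228), 0 with 10 ng/mL against vehicle (10 tested, 0% of 12290) and 0 with 10 against 1 ng/mL (9 tested, 0.0244%). Genes at an unadjusted p under 0.05 numbered 1, 0 and 2, against 5.03%, 2.73% and 3.68% of all genes, and DESeq2 called 0 in each. ARG2, GATM and CKMT1A had too few reads to be tested for 1 ng/mL against vehicle, as did CKMT1A for 10 against 1 ng/mL. SMS was -0.31 ± 0.13 (SE) with 1 ng/mL against vehicle (adjusted p = 0.917) and lower in 3 of 3 replicates. CKB was 0.56 ± 0.18 (SE) with 10 against 1 ng/mL (adjusted p = 1.00) and higher in 3 of 3 replicates, the largest step being in replicate 1, without which it was 0.29.

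GATM and CKMT1A with 10 ng/mL insulin depended on which culture was counted. Against vehicle, GATM was 0.53 ± 1.39 (SE) and CKMT1A 0.35 ± 1.87 (SE), and neither was called. The 10 ng/mL libraries also gave the contrast with 1 ng/mL for which the study named both genes, so these values are a description. Without replicate 2, whose vehicle library held 3.71% of the epithelial marker level, edgeR called both higher, at 3.52 and 4.68. Without replicate 1, whose 10 ng/mL library held 3.67%, the values were -1.96 and -3.38 and neither was called. Replicate 3, the remaining pair, read 0.433 and 1.83 CPM for GATM and 0 and 0.961 CPM for CKMT1A with vehicle and 10 ng/mL. The study named GATM and CKMT1A between 10 and 1 ng/mL in stroma, so their values there are a description. GATM read 12.4, 0.351 and 1.83 CPM against 0.463, 0.0848 and 0.888 CPM, a fitted log2 value of 2.96 ± 0.56 (SE) that was 1.16 without replicate 1, and CKMT1A read 10.97, 0 and 0.961 CPM against 0.278, 0 and 0.161 CPM. In that contrast only 6 of 25 epithelial markers had enough reads to be tested, and all 6 were above 0, with a median of 2.43. The summed markers were 28.5 to 36.6 CPM at 1 ng/mL and 33.6 to 376 CPM at 10 ng/mL. Those 6 may have passed the filter through the 10 ng/mL libraries, so nothing is read from their sign.

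**Figure D4:**
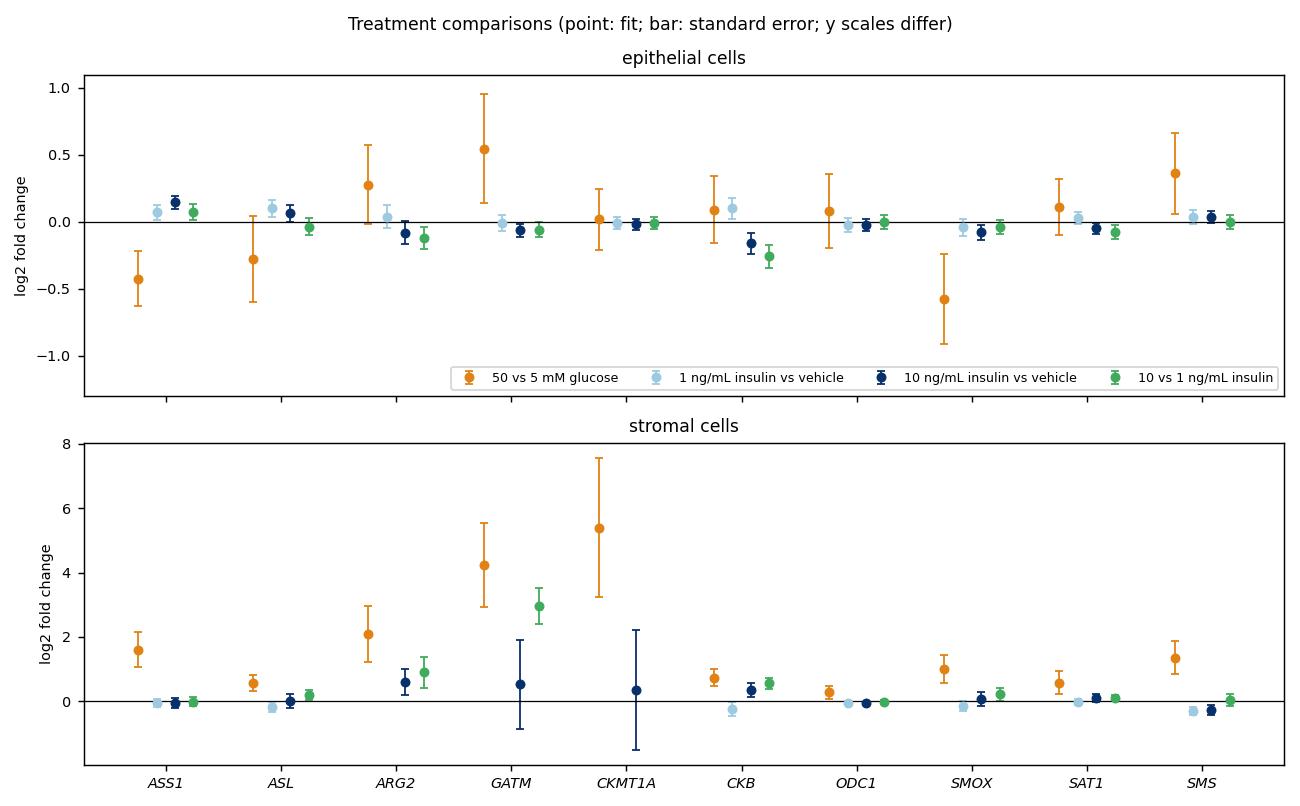
Fitted log2 fold change of each gene in the 4 treatment comparisons (colour) in epithelial (upper) and stromal cells (lower), with the standard error as a bar. The y scales differ. Epithelial insulin values lie within 0.26 of 0, and the stromal glucose values for GATM (4.24) and CKMT1A (5.40) carry errors of 1.30 and 2.17.

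The difference between cell types in the response was tested for insulin as well. For 1 ng/mL against vehicle, CKMT1A passed the call rule (1 of 10, background 0.659%), with an epithelial less stromal difference of 4.91 ± 0.66 (SE). GATM was 2.98 ± 0.67 (SE) and did not pass. Both had too few reads to be tested in stroma alone for this contrast, so they passed the filter through their epithelial reads. With SMS, 3 genes had an unadjusted p under 0.05, against 6.69% of all genes. This contrast shares its 1 ng/mL libraries with the one for which GATM and CKMT1A were named, so their values are a description. Without replicate 2 the CKMT1A value was -0.082 and the GATM value -0.23. Of 25 epithelial markers, 18 were called in the same direction, with a median of 4.07. For 10 ng/mL against vehicle 0 genes were called (0%), with 1 at an unadjusted p under 0.05 (4.05% of all genes) and 2 called without replicate 2. Those 2 were GATM and CKMT1A, again a description, since the 10 ng/mL libraries also gave the contrast for which they were named. For 10 against 1 ng/mL, GATM (-3.20 ± 0.44) and CKMT1A (-4.54 ± 0.37) passed the call rule (2 of 10, background 0.728%), as did 19 of 25 epithelial markers in the same direction. At an unadjusted p under 0.05 there were 4 genes, ARG2 and CKB being the others, against 6.6% of all genes. CKMT1A had 5 stromal reads in all at 1 ng/mL, on which its SE also rests, and passed the filter through its epithelial reads. The GATM and CKMT1A values rest on the contrast for which those genes were named, so they are a description. Without replicate 1 they were -1.29 and -2.48 and did not pass, and DESeq2 was not run for these differences.

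Replicate number accounted for more of the epithelial variation of these genes than dose did. The shares were computed for the 10 genes only, so no share over all genes stands beside them. Over genes with a mean of at least 1 CPM, same-numbered epithelial insulin libraries also deviated together (r of 0.69 to 0.84). In the 9 epithelial insulin libraries, the replicate share of the variance of log2 CPM exceeded the dose share for 10 of 10 genes, with medians of 87.9% and 2.61%. GATM lay at 81.3 to 95.5 CPM in replicate 1, 131 to 142 CPM in replicate 2 and 158 to 181 CPM in replicate 3 whatever the dose. ODC1 was likewise separate at 109.5 to 114 CPM, 138 to 152 CPM and 170.02 to 184 CPM. CKB was 16.8 to 22.0 CPM in replicate 2 and 41.1 to 59.3 CPM in the others.

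With glucose, epithelial shares were 79.1% for replicate and 5.48% for dose, and replicate exceeded dose for 9 of 10 genes, SMS being the exception. The glucose experiment had more replicate numbers than doses, which raises the replicate share even without an effect, and no share was adjusted for this. SAT1 had the largest replicate share there, 97.3%, from 534 and 643 CPM in replicate 3 and 220 to 256 CPM in replicates 1 and 2. In stroma the medians were 35.0% for replicate and 41.3% for dose with glucose, and 43.6% and 9.82% with insulin. Stromal GATM and CKMT1A had replicate shares of 4.16% and 11.1% with insulin, the lowest of the set. The summed stromal markers in epithelial insulin libraries also went with replicate number, at 1650 to 2063 CPM in replicate 1, 1187 to 1275 CPM in replicate 2 and 4031 to 4496 CPM in replicate 3, and their part was not tested.

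**Figure D5:**
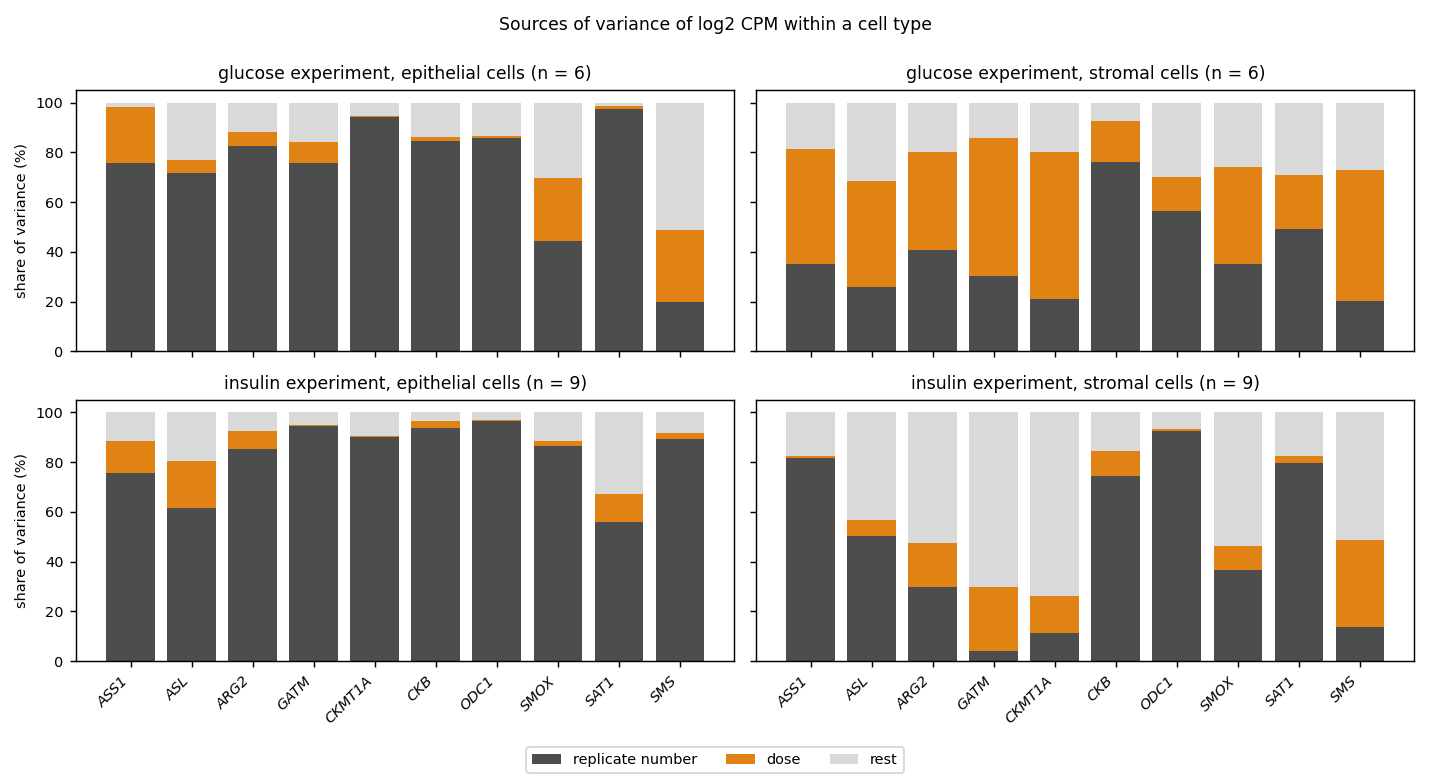
Share of the variance of log2 CPM that went with replicate number, with dose and with neither, for each gene in 4 sets of libraries. Replicate number takes most of each bar in epithelial insulin libraries (median 87.9%). In stromal insulin libraries the unassigned rest is largest for GATM (70.0%) and CKMT1A (73.8%). It also takes most of the bar there for SMOX (53.7%), ARG2 (52.7%) and SMS (51.4%).

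Both experiments held cultures at 5 mM glucose without added insulin, but they were separate runs, so cell batch and medium cannot be told apart and no test was made. Side by side, epithelial ASS1 averaged 297 ± 91.2 CPM (SD, n = 3) at 5 mM in the glucose experiment, where the vehicle mean was 80.5 ± 11.4 CPM (SD, n = 3). Epithelial SMS averaged 57.4 ± 20.4 CPM (SD, n = 3) with glucose medium, where vehicle gave 95.0 ± 4.80 CPM (SD, n = 3). Stromal SAT1 had a mean of 158 ± 25.7 CPM (SD, n = 3), then 68.8 ± 21.9 CPM (SD, n = 3) for vehicle. For stromal ODC1 the glucose experiment mean was 95.9 ± 30.7 CPM (SD, n = 3), its vehicle mean 169 ± 30.8 CPM (SD, n = 3).

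Of 49 other genes listed for the same pathways, 44 were found (19 of 23 on the arginine side, 4 of 4 for creatine and 21 of 22 for polyamines). None was called by edgeR in any of the 8 treatment comparisons, with 0 to 3 at an unadjusted p under 0.05 in each. Between cell types, 4 were called higher and 1 lower in epithelial cells of 39 tested at 5 mM glucose (background 21.5%), and 1 and 1 of 39 at 50 mM (17.6%). The counts were 8 and 7 of 38 with vehicle (55.9%), 11 and 9 of 37 with 1 ng/mL (59.4%), and 8 and 10 of 36 with 10 ng/mL (54.9%). The median log2 difference with vehicle was -0.09 over the 38 and 2.91 over the 10 genes. The 10 were chosen with their levels in the cell types in view, so nothing is read from that gap.

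SLC7A2, a transporter of arginine and other cationic amino acids, was called higher in epithelial cells under all 5 treatments, with log2 differences of 1.25 to 2.50. Its insulin libraries read between 20.9 and 32.5 CPM in epithelium, and in stroma between 5.85 and 10.4 CPM. With glucose the ranges overlapped, at 20.4 to 352 CPM in epithelium and 3.84 to 67.9 CPM in stroma. Of 36 genes tested at all 3 insulin doses, 13 were called in 1 direction at each, against 48.5% of all genes, so nothing is read from that count. They were picked for naming after their values were seen, because they were called at all 3 doses, so no p-value is given for them. Those higher in epithelial cells were DDAH1 and DDAH2, which degrade methylated arginines that inhibit nitric oxide synthase, PRODH of proline breakdown, SLC7A2, ENOPH1 of methionine salvage and MAT2B. PRODH was near the counting floor, with 2 to 8 reads in each stromal and 14 to 45 in each epithelial insulin library. DDAH1 had log2 differences of 2.41 to 2.48. Those higher in stromal cells were SLC7A1, a second arginine transporter, ALDH4A1, MAT2A, EIF5A and EIF5A2, which carry the spermidine-derived hypusine, DOHH, which completes hypusine, and SLC18B1, a vesicular polyamine transporter. EIF5A2 had log2 differences of -2.66 to -2.13 and SLC18B1 of -1.99 to -1.92. In the insulin experiment the arginine transporters SLC7A1 and SLC7A2 lay on opposite sides, SLC7A1 at -0.47 to -0.40. With glucose, SLC7A1 averaged 93.2 CPM in epithelial and 71.2 CPM in stromal libraries, with overlapping ranges, so on the side of SLC7A2. Mean CPM with glucose was also not higher in stroma for DOHH (15.1 in epithelium, 12.1 in stroma), MAT2A (109 and 108) and EIF5A (263 and 257). For ALDH4A1, EIF5A2 and SLC18B1 it was higher in stroma.

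Likeness between genes was measured over the 30 libraries after the mean of each experiment and cell type was removed. CKMT1A was most like KRT7 (Pearson r = 0.99), RAB25 (0.98) and CLDN7 (0.98), which are a keratin, a trafficking GTPase and a tight junction protein on the epithelial marker list. GATM was most like MALL (0.95) and LY6G6E (0.95), and ODC1 like an unnamed gene, ENSBTAG00000032281 (0.96), EREG (0.91) and CXCL8 (0.86). Among the 10 genes the closest pairs were GATM and CKMT1A (0.93), GATM and ARG2 (0.86), ARG2 and CKMT1A (0.81), and ASL and SMOX (0.80). CKB reached no more than 0.35 with any other, and ODC1 and SAT1, at opposite ends of the polyamine path, gave -0.22. These values include the stromal libraries that held epithelial marker RNA.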

How the data were processed

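RNA from 30 bovine endometrial chip cultures was sequenced as stranded, single-end 75-base libraries. Per the study's methods and the labels, the authors trimmed adapters with cutadapt, mapped reads to the Ensembl cow genome with Rsubread, kept unique alignments and deposited raw counts per gene made with featureCounts. Versions, the build name and the strand setting of the counter are not given in the sources used here. The authors' deposited comparison tables hold DESeq2 fold changes and p-values, which were not used. Gene names and types were read from them.

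Counts were analysed with edgeR 4.0.16 (R 4.3.3). Genes passed filterByExpr, library sizes were scaled by TMM, and a quasi-likelihood model with replicate number as block was fitted over all genes for each pair of groups. Differences between cell types in a response used an interaction term with cell type by replicate as block. A call needed a Benjamini-Hochberg adjusted p under 0.05 over all genes tested and a log2 fold beyond 0.1. The SE of a fit is its absolute log2 fold change divided by the square root of the quasi-likelihood F. Where reads were few it may understate the spread. The block follows the study's paired design. Same-numbered libraries deviated together within epithelial cells (r of 0.30 to 0.84), and in stroma r was -0.14 to 0.75. Across cell types r was 0.034 to 0.53, over 0.1 in 11 of 15 pairs. The labels do not say whether same-numbered epithelial and stromal cultures shared a cow. Fits were tested on simulated data. No 2 libraries were identical. Likeness used log2 TMM-scaled CPM with a prior count of 1 over 12881 genes with a mean of at least 1 CPM.

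The 10 genes, the pathway lists and the markers were chosen with earlier results of these data known. All 10 were to be named in each comparison, other pathway genes only where called in a treatment comparison or between cell types under all 5 treatments, and for likeness the 3 closest protein-coding genes. The pathway genes called in 1 direction at all 3 insulin doses were named in addition, after their values were seen. Alternatives were no block, DESeq2 (1.42.0) and its size factors, no filter on low counts, all libraries of a cell type together, and leaving out each replicate number. CPM on TMM-adjusted sizes and leaving out stromal libraries with epithelial marker RNA were chosen after seeing the data. Intervals and floors cover counting error only.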

Additional observations from a re-analysis of the deposited data

Results flagged for a closer look

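In the test of the difference between cell types, CKMT1A passed the call rule for 1 ng/mL insulin against vehicle (edgeR, 3 replicates a group). The epithelial less stromal log2 change was 4.91. That value is a description, since the 1 ng/mL libraries also gave the contrast for which the gene was named. The stromal libraries behind it held 5, 147 and 0 CKMT1A reads with vehicle and 3, 0 and 2 with 1 ng/mL, so the value rests on vehicle replicate 2, the library at 3.71% of the epithelial marker level. Without replicate 2 it was -0.082.

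The same test picked out GATM (-3.20) and CKMT1A (-4.54) for 10 against 1 ng/mL insulin, as a description, since both genes had been named for the stromal part of that contrast. In stroma, CKMT1A went from 3, 0 and 2 reads to 145, 0 and 10 reads, and the highest of these came from 10 ng/mL replicate 1, at 3.67% of the epithelial marker level. Without replicate 1 the values were -1.29 for GATM and -2.48 for CKMT1A, and neither passed the call rule.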

How the results depend on the processing

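Shares of all genes called under the alternative settings are not set beside the counts in this section. No change of count is therefore read as particular to these genes. The replicate block decided several counts. With no replicate block, called genes of the 10 fell from 7 to 4 between cell types at 5 mM glucose, from 6 to 0 at 50 mM, from 1 to 0 for the difference between cell types in the effect of 1 ng/mL insulin against vehicle, and from 2 to 0 for 10 against 1 ng/mL. Without the block, 1 of the other pathway genes was called at 50 mM, against 2 with it. The pairing also set the sign of small values: without the block, epithelial CKMT1A and ODC1 with glucose were -0.031 and -0.069, epithelial GATM with 1 ng/mL insulin 0.020, epithelial ODC1 between 10 and 1 ng/mL -0.0054, and stromal CKMT1A with 10 ng/mL against vehicle -0.28. The block changed no other count by over 1.5 times.

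DESeq2 called 2 of the 10 genes in stroma with glucose, and 9, 6 and 12 of the other pathway genes between cell types at 5 mM, at 50 mM and with 1 ng/mL insulin. It put stromal ASL with 10 ng/mL against vehicle at -0.0099. With no filter on low counts, 2 genes, GATM and CKMT1A, were called in stroma for 1 ng/mL against vehicle and for 10 against 1 ng/mL, 2 for the difference between cell types with 1 ng/mL, and 4 of the other pathway genes at 50 mM, and epithelial ODC1 between 10 and 1 ng/mL was -0.0049. In the fit over all epithelial insulin libraries that ODC1 value was -0.00096. Leaving out the stromal libraries over 1% of the epithelial marker level, chosen after seeing the data, raised the genes not overlapping between cell types with glucose from 4 to 9.

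Leaving out 1 replicate number at a time gave the following ranges of called genes among the 10. Between cell types the range was 0 to 8 at 50 mM glucose, with 0 without replicate 1. It was 0 to 2 in stroma with glucose (2 without replicate 1), 0 to 1 in epithelial cells between 10 and 1 ng/mL (CKB without replicate 1), 0 to 2 in stroma with 10 ng/mL against vehicle (2 without replicate 2), and 0 to 1 in stroma between 10 and 1 ng/mL. For differences between cell types it was 0 to 2 with glucose (2 without replicate 1), 0 to 2 with 1 ng/mL against vehicle (0 without replicate 2, 2 without replicate 3), 0 to 2 with 10 ng/mL against vehicle (2 without replicate 2), and 1 to 2 between 10 and 1 ng/mL (1, SAT1, without replicate 1). Other pathway genes called between cell types numbered 1 to 7 at 5 mM (1 without replicate 3), 0 to 10 at 50 mM (0 without replicate 1, 10 without replicate 3), 8 to 13 with vehicle (8 without replicate 1), 12 to 15 with 1 ng/mL (13, 12 and 15 without replicates 1, 2 and 3) and 8 to 13 with 10 ng/mL (8 without replicate 2, 10 without replicate 3).

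Log2 values that changed sign in these fits had the following ranges. In epithelial cells with glucose they were ASL -0.57 to 0.10, ARG2 -0.018 to 0.42, GATM -0.0013 to 0.89, CKMT1A -0.092 to 0.19, CKB -0.12 to 0.26 and ODC1 -0.23 to 0.29. With 1 ng/mL against vehicle they were ARG2 -0.039 to 0.10, GATM -0.073 to 0.11, CKMT1A -0.038 to 0.033, ODC1 -0.084 to 0.040, SMOX -0.11 to 0.10 and SAT1 -0.0084 to 0.088. With 10 ng/mL they were CKMT1A -0.047 to 0.0031 and SMOX -0.16 to 0.027, and between 10 and 1 ng/mL GATM -0.12 to 0.027, CKMT1A -0.035 to 0.020, ODC1 -0.039 to 0.072, SMOX -0.067 to 0.0013 and SMS -0.051 to 0.029. In stroma with 1 ng/mL they were CKB -0.49 to 0.061 and SAT1 -0.12 to 0.17, and with 10 ng/mL ASS1 -0.29 to 0.10, ASL -0.36 to 0.28, GATM -1.96 to 3.52, CKMT1A -3.38 to 4.68, SMOX -0.26 to 0.30 and SAT1 -0.079 to 0.26. Between 10 and 1 ng/mL in stroma they were ASS1 -0.20 to 0.083, ASL -0.054 to 0.34, ARG2 -0.056 to 1.12, ODC1 -0.11 to 0.075, SMOX -0.11 to 0.44, SAT1 -0.0086 to 0.25 and SMS -0.24 to 0.20. Between cell types at 50 mM, CKB ranged from -0.68 to 0.34. For the difference between cell types with 1 ng/mL, GATM ranged from -0.23 to 4.31 and CKMT1A from -0.082 to 6.17, and with 10 ng/mL GATM from -3.69 to 2.38 and CKMT1A from -4.72 to 3.85. Of the other differences, ODC1 changed sign with glucose (-0.69 to 0.14). With 1 ng/mL they were SAT1 -0.19 to 0.23, ODC1 -0.083 to 0.13, ARG2 -0.11 to 0.90 and SMOX -0.0032 to 0.26, and with 10 ng/mL SAT1 -0.32 to 0.065, SMOX -0.38 to 0.17 and ASL -0.30 to 0.48. Between 10 and 1 ng/mL they were SMS -0.19 to 0.18, ODC1 -0.12 to 0.11, ASS1 -0.050 to 0.22, SMOX -0.53 to 0.099 and ASL -0.37 to 0.0025. The causes were not tested. Under the other alternatives, 556 single-gene values kept both direction and call, 6 gained a call, 14 lost one and 8 changed sign, and with 3 counts standing for up to 0.34 CPM, stromal GATM, CKMT1A and ARG2 are the values that depth limits most.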

Other observations

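Stromal replicate 2 of the glucose experiment held 61.7 and 85.5 CPM of CKB, against 16.8 and 21.8 CPM in replicate 1, while its epithelial marker medians of 0.0176% and 5.43% were below those of replicate 1 (7.11% and 15.3%). At 5 mM this stromal library read more CKB than any epithelial culture of that dose. Smooth muscle markers summed to 3891 and 4184 CPM in replicate 2, against 1303 and 1621 CPM in replicate 1, and their part was not tested. In the 7 stromal insulin libraries under 1% of the epithelial marker level, CKB was 2.28 to 11.6 CPM.

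Epithelial replicate 2 at 5 mM glucose, the lowest library for GATM, ODC1 and SMS, read 103 CPM of GATM where the same replicate read 345 CPM at 50 mM, and 248 CPM of SMOX where it read 93.9 CPM at 50 mM. Its epithelial marker sum was 16935 CPM, against 9536 to 10619 CPM in the other epithelial glucose libraries. Its median stromal marker was 2.69% of the stromal level, the lowest of the 6, while its stromal marker sum was 3133 CPM, inside the range of 1931 to 7432 CPM of the others. The part of these marker levels in its readings was not tested.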
